A study of Mus musculus with 11 samples.

Results

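The interferon response genes followed here are 39 genes induced by type I or type II interferon, taken by gene symbol from a fixed list. The list was drawn up with earlier results of these data known. All 39 were among the 20888 rows of the deposited expression table. The data come from RNA sequencing of the lumbar spinal cord of mice, in a study of mice that model CMT2A, the axonal form of Charcot-Marie-Tooth neuropathy that mutations of mitofusin 2, a mitochondrial fusion protein, cause in people. The question addressed is how these genes differed between mice with the mutant mitofusin, mice that also had MFN1, and mice with neither.

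All mice were C57BL/6 and 10 months old. The group MFN2-R94Q:MFN1, with 5 libraries, carried the mutant MFN2-R94Q together with MFN1. MFN2-R94Q, with 3 libraries, carried the mutant mitofusin without the added MFN1. The 3 nTg libraries came from nontransgenic mice. The species, promoter and copy number of the transgenes were not given in the sources used here, nor was a group with MFN1 alone, so each comparison is limited to these genotypes. The series text counts mice, and each library was taken as 1 mouse.

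Interferons are secreted signals of antiviral defence. Type I interferons bind the Ifnar1 and Ifnar2 receptor chains, and the kinases Jak1 and Tyk2 then activate signal transducers such as Stat2, which joins Irf9 in a complex that binds the interferon-stimulated response element of its target genes. Type II interferon acts through Ifngr1 and Ifngr2 and on genes with gamma-activated sites. In the central nervous system these genes are expressed at low levels in health, and microglia, the resident macrophages, as well as endothelial cells and neurons respond to interferon.

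Expression is given as RPKM, read counts scaled by gene length and by the size of the library, as the authors deposited it. Depth, recovered from the steps of low values of short RNA genes, was 30.7 to 72.0 M reads per library, so that 1 read in a gene of 1 kb corresponded to 0.0139 to 0.0326 RPKM. MFN2-R94Q replicate 2 stood apart from every other library, at 27.0 on the first principal component of all genes past the filter (39.6% of the variance). On it the 2 others of its group had 6.20 and 8.05, and MFN2-R94Q:MFN1 and nTg together spanned -8.23 to -2.48. Mouse Mfn1 lay at 24.2 to 25.6 RPKM in MFN2-R94Q:MFN1, 25.8 to 26.6 RPKM in MFN2-R94Q and 24.2 to 25.5 RPKM in nTg, and mouse Mfn2 at 43.4 to 47.0, 44.9 to 47.7 and 44.8 to 47.2 RPKM in the same groups. Neither passed the threshold in any comparison, and since the species of the transgenes is not given, these values do not check the labels.

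The interferon response genes were highest in MFN2-R94Q:MFN1 spinal cord and lowest in MFN2-R94Q. Of the 39 genes, 35 passed the filter of at least 0.5 RPKM in at least 3 libraries; Zbp1, Oas2, Mx1 and Ifi44 did not and were given no test. The group mean was highest in MFN2-R94Q:MFN1 for 32 of the 35 and lowest in MFN2-R94Q for 28. The summed level of all 39 genes was 134 to 150 RPKM in the MFN2-R94Q:MFN1 libraries, 99.0 to 112 RPKM in MFN2-R94Q and 119 to 125 RPKM in nTg, with no overlap between the groups. Ifi27 and Ifitm3 were the largest terms of this sum, so it does not weigh the genes equally. Group mean RPKM differed by over 2-fold for 5 of the 35, Irf7, Oas1a, Isg15, Usp18 and Gbp2, each between MFN2-R94Q:MFN1 and MFN2-R94Q, and for none in the other comparisons. The shares of all genes with such orders of means or such folds were not counted.

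Changes were tested with limma across all 14347 genes past the filter, on log2(RPKM + 0.5), and a change was called at a Benjamini-Hochberg adjusted p under 0.05. The log2 fold changes are on this scale, which understates the change of genes with low values, whereas folds and shares of a level are ratios of group mean RPKM. On the log2 scale no member changed by over 1, although Irf7, Oas1a and Isg15 reached 1.08, 1.04 and 1.02 in MFN2-R94Q:MFN1 against MFN2-R94Q with a pseudocount of 0.1. In MFN2-R94Q against nTg, 6 of the 35 members fell (Ifit3, Ifitm3, Rsad2, Isg15, Usp18 and Gbp3), which is 17.1%, while 10.4% of all genes tested were called lower. The single member that rose was Eif2ak2, while 7.5% of all genes were called higher. The median log2 fold change of the 35 was -0.16, with a range of -0.59 to 0.30, and that of all genes was -0.002. Groups did not overlap for 12 members that were lower and 3 that were higher in MFN2-R94Q, against 19.1% and 16.6% of all genes.

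In MFN2-R94Q:MFN1 against MFN2-R94Q, 20 of the 35 members rose, which is 57.1%, while 9.55% of all genes tested were called higher. By limma none fell, at the adjusted p or at an unadjusted p under 0.05, while 3.33% of all genes were called lower. The fitted change was positive for 33 of the 35, with a median log2 fold change of 0.31 and a highest of 0.85 for Irf7, beside a median of 0.01 for all genes. The share of all genes with a positive change was not counted, but of all genes called in this comparison 74.1% were higher. For 21 members every MFN2-R94Q:MFN1 library lay above every MFN2-R94Q library, and for none was the reverse true, against 13.1% and 7.05% of all genes. With the log2 values quantile normalized across libraries, the split of all genes called moved to 1004 higher and 833 lower, from 1370 and 478 on the deposited scale, and 19 members rose. Under median ratio scaling the split was 1098 and 702, and 18 members rose.

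Without MFN2-R94Q replicate 2, which had the lowest value of its group for 25 of the 35 members (71.4%, against 41.2% of all genes), 12 members rose in MFN2-R94Q:MFN1 against MFN2-R94Q and 2 fell in MFN2-R94Q against nTg. The 12 were Irf1, Irf7, Sp100, Ifit3, Ifitm3, Bst2, Oas1a, Oasl2, Isg15, Usp18, Gbp2 and Gbp3, and the 2 were Ifitm3 and Usp18. The count of members that fell in MFN2-R94Q against nTg was also 3 without nTg replicate 2 and 1 (Ifitm3) without nTg replicate 3. No other single library moved the count of 20 by over 1.5 times.

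In MFN2-R94Q:MFN1 against nTg, 5 of the 35 members rose (Ifitm3, Bst2, Eif2ak2, Gbp2 and Irgm1), which is 14.3%, while 2.09% of all genes tested were called higher. None fell by limma, with 1 (Cmpk2) at an unadjusted p under 0.05, while 0.223% of all genes were called lower. The median log2 fold change was 0.19, and that of all genes was 0.01. Groups did not overlap for 14 members that were higher and 0 that were lower in MFN2-R94Q:MFN1, against 9.03% and 5.05% of all genes. This count of 5 rested on few libraries. It was 2 (Ifitm3 and Bst2) without nTg replicate 1 or nTg replicate 2, 1 (Ifitm3) without nTg replicate 3, 3 without MFN2-R94Q:MFN1 replicate 1 or 4, and 2 without MFN2-R94Q:MFN1 replicate 2 or 3. The 3 comparisons share libraries, since each group enters 2 of them, and their counts are not independent.

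**Figure D1:**
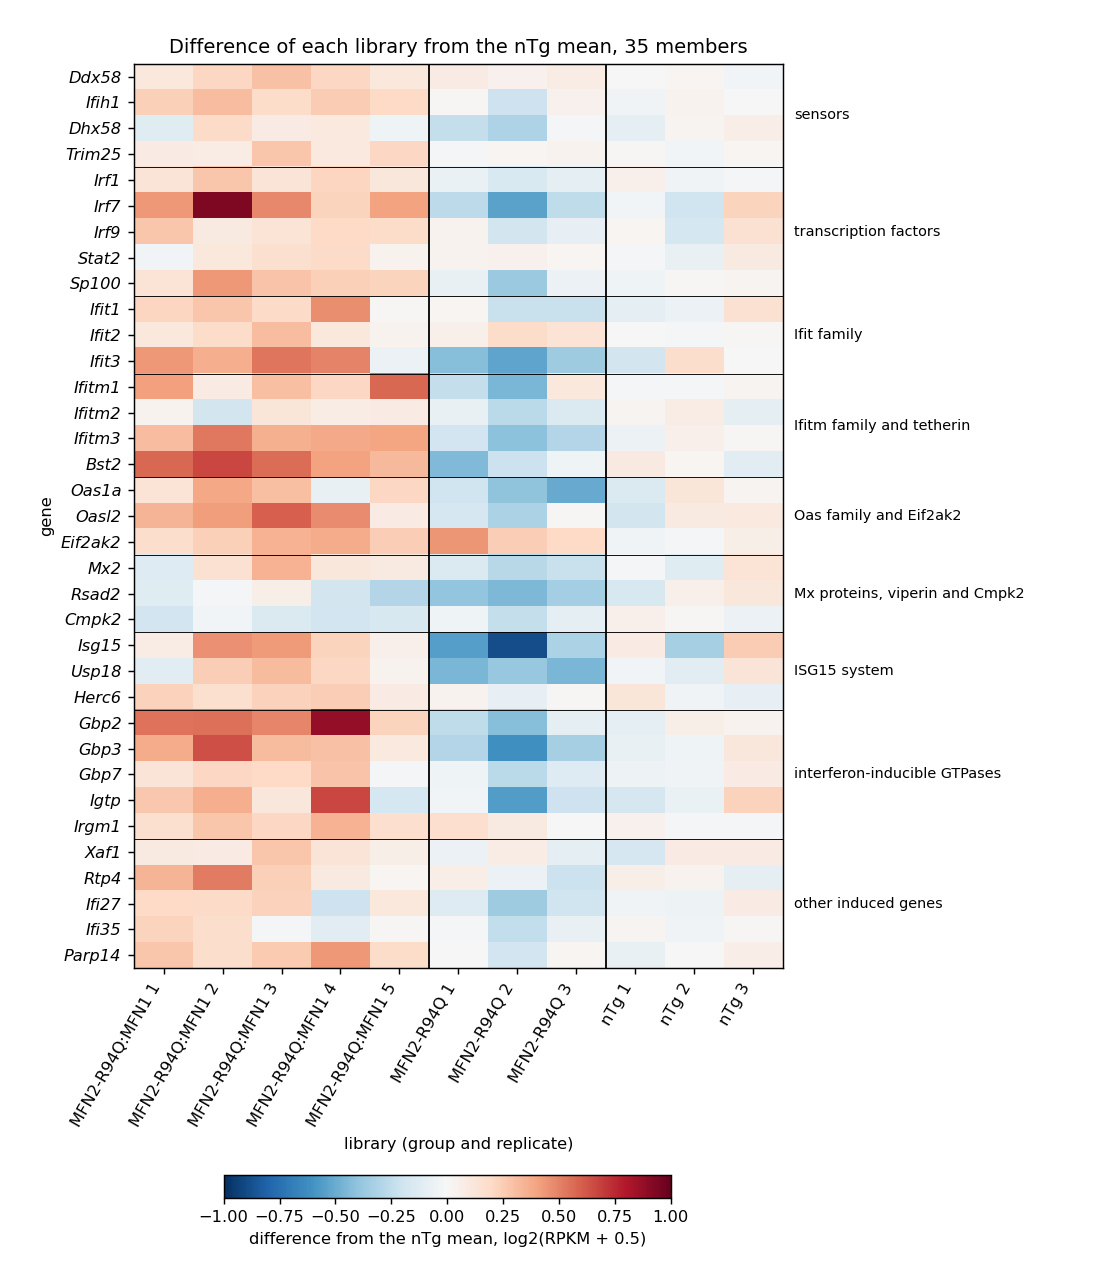
Difference of each library (columns) from the nTg mean, on the log2(RPKM + 0.5) scale, for the 35 members past the filter (rows, grouped by role); red is above and blue below the nTg mean. The 5 MFN2-R94Q:MFN1 columns are mostly red, and the MFN2-R94Q columns mostly blue, with MFN2-R94Q replicate 2 the lowest of its group for 25 of the 35.

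Libraries of a group differed from each other across the members. Taking each member as its difference from the nTg mean, the median over the 35 was 0.18, 0.24, 0.27, 0.21 and 0.09 in MFN2-R94Q:MFN1 replicates 1 to 5. It was -0.07, -0.27 and -0.09 in MFN2-R94Q replicates 1 to 3, and -0.03, -0.01 and 0.03 in the nTg replicates. Every MFN2-R94Q:MFN1 library was thus above every other library by this median, and every MFN2-R94Q library was below every nTg library. Both margins were narrow. The closest were MFN2-R94Q:MFN1 replicate 5 (0.09) beside nTg replicate 3 (0.03), and MFN2-R94Q replicate 1 (-0.07) beside nTg replicate 1 (-0.03). Taken from the mean of all libraries instead, the median had an SD of 0.07 between libraries of a group. MFN2-R94Q:MFN1 replicate 5 was the lowest of its 5 for 15 of the 35 members (42.9%, against 17.7% of all genes). Replicates 2 and 3 were the highest for 12 and 11 (34.3% and 31.4%, against 22.4% and 18.7% of all genes).

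Promoter sequence was read for the members as a description of the list. RefSeq promoters on GRCm38.p6 were found for 30 of the 39 members, 35 promoters in all, and the 250 bases before each start were searched on both strands for GAAANNGAAA, the core of the interferon-stimulated response element, and for TTCNNNGAA, the core of the gamma-activated site. The 2 motifs were searched independently of each other and could overlap. The first was found in 13 of the 35 member promoters (37.1%) and in 2.98% of 32851 promoters of all genes. The second was found in 7 member promoters (20.0%) and in 7.02% of all. Since the list is of genes induced by interferon, these shares describe the list and not the changes between the groups. Of members that rose in MFN2-R94Q:MFN1 against MFN2-R94Q, 8 of 16 with a promoter held the first motif, and of those tested and not called, 5 of 13 did. A match is a description of the letters and not of binding. The stretches around the matches are shown for 7 members called in at least 1 comparison and for 2 members, Stat2 and Igtp, that were called in none. Gbp2, Gbp7, Irgm1 and Ifitm2 also had a match and are not shown. Each is written 5′ to 3′ on the strand of its gene, and capitals mark GAAANNGAAA or its reverse complement.
Isg15, chr4:156200850-156200921, minus strand: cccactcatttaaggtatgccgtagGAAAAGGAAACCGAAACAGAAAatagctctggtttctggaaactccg
Ifit1, chr19:34640760-34640838, plus strand: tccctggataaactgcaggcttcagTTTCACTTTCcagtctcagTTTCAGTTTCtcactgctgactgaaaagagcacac
Ifit3, chr19:34583348-34583441, plus strand: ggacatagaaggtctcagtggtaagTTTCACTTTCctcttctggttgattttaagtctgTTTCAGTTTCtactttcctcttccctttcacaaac
Bst2, chr8:71537562-71537627, minus strand: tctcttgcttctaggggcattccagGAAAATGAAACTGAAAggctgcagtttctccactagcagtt
Gbp3, chr3:142559974-142560039, plus strand: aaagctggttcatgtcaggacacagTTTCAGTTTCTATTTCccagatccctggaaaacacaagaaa
Oas1a, chr5:120907526-120907570, minus strand: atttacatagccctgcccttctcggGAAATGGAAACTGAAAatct
Rsad2, chr12:26456538-26456597, minus strand: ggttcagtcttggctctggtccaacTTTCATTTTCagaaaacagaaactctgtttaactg
Stat2, chr10:128270251-128270310, plus strand: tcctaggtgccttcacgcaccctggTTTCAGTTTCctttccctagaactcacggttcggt
Igtp, chr11:58199497-58199555, plus strand: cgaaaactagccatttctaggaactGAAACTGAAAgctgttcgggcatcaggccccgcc

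Isg15 held 3 overlapping matches 78 to 57 bases before the transcript start, and Ifit3 held 2 separate ones between 156 and 113 bases. In Oas1a the matches ended 5 bases before the start. Stat2 had its match 222 to 213 bases before the start. The windows of Ifitm3, Irf7 and Eif2ak2 did not hold GAAANNGAAA on either strand, while that of Eif2ak2 held 1 match of TTCNNNGAA.

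The members differed widely in level. Averaged over all 11 libraries, Ifi27 stood at 24.8 RPKM and Ifitm3 at 16.9, the 2 members above 10 RPKM. Another 25 lay between 1 and 10 RPKM, with Cmpk2 at 9.86, and 12 lay under 1 RPKM. No member was at 0 in any library. RPKM is scaled by gene length, so these levels can be set roughly beside each other across genes. The annotation and the counting of reads with several matches were not given, so levels of overlapping or near-identical genes are uncertain.

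Among the sensors of viral nucleic acid, Ifih1 rose in MFN2-R94Q:MFN1 against MFN2-R94Q and no other sensor passed in any comparison. Ifih1, which encodes MDA5, a cytoplasmic sensor of long double-stranded RNA, measured 1.11, 1.19, 1.05, 1.13 and 1.07 RPKM in MFN2-R94Q:MFN1, 0.881, 0.683 and 0.908 RPKM in MFN2-R94Q, and 0.835, 0.903 and 0.862 RPKM in nTg. All 5 MFN2-R94Q:MFN1 libraries lay above the 6 others, and the ranges of MFN2-R94Q and nTg overlapped. Against MFN2-R94Q the change was 1.35-fold (log2 fold change 0.29, SE 0.071, adjusted p = 0.022), a call lost without MFN2-R94Q replicate 2 or MFN2-R94Q:MFN1 replicate 2, with a highest adjusted p of 0.0996. Ddx58, which encodes RIG-I, a related sensor of foreign RNA, measured 1.47, 1.61, 1.74, 1.61 and 1.47 RPKM in MFN2-R94Q:MFN1, 1.43, 1.38 and 1.43 RPKM in MFN2-R94Q, and 1.33, 1.36 and 1.296 RPKM in nTg. Its 3 groups did not overlap, with MFN2-R94Q between the other 2, but the steps were small, at 0.12 (SE 0.059, adjusted p = 0.21) against MFN2-R94Q and 0.18 (SE 0.059, adjusted p = 0.15) against nTg. Trim25, a ubiquitin ligase that activates RIG-I, measured 1.79, 1.77, 2.11, 1.81 and 2.00 RPKM in MFN2-R94Q:MFN1, 1.65, 1.68 and 1.72 RPKM in MFN2-R94Q, and 1.68, 1.62 and 1.69 RPKM in nTg. Its MFN2-R94Q:MFN1 libraries again lay above all others, with no call against MFN2-R94Q (log2 fold change 0.13, SE 0.06, adjusted p = 0.17). Dhx58, which encodes the related helicase LGP2, averaged 0.898 ± 0.12 RPKM in MFN2-R94Q:MFN1, 0.696 ± 0.13 RPKM in MFN2-R94Q and 0.858 ± 0.081 RPKM in nTg (SD, n = 5, 3 and 3). Zbp1, a sensor of Z-form nucleic acid that can trigger cell death, lay below the filter at 0.116 to 0.279 RPKM in MFN2-R94Q:MFN1, 0.0151 to 0.0705 RPKM in MFN2-R94Q and 0.0513 to 0.0934 RPKM in nTg, with every MFN2-R94Q:MFN1 library above the 6 others.

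Of the transcription factors, Irf1, Irf7, Irf9 and Sp100 rose in MFN2-R94Q:MFN1 against MFN2-R94Q, and Stat2 did not pass. None of the 5 passed in the comparisons with nTg. Irf7, the factor that amplifies type I interferon production, had the largest log2 fold change of the 35 members against MFN2-R94Q (log2 fold change 0.85, SE 0.14, adjusted p = 0.0036), with a mean 2.26-fold higher. It averaged 2.11 ± 0.51 RPKM in MFN2-R94Q:MFN1, 0.933 ± 0.15 RPKM in MFN2-R94Q and 1.34 ± 0.27 RPKM in nTg (SD, n = 5, 3 and 3), and the lowest MFN2-R94Q:MFN1 library, at 1.63 RPKM, was just above the highest nTg library, also at 1.63. Exons of Irf7 overlap those of Phrf1 on the opposite strand, and it is not given whether the authors counted by strand. Irf1, an early interferon response factor, measured 1.78, 2.03, 1.79, 1.92 and 1.76 RPKM in MFN2-R94Q:MFN1, 1.49, 1.38 and 1.46 RPKM in MFN2-R94Q, and 1.66, 1.54 and 1.56 RPKM in nTg. Its 3 groups did not overlap, in the order MFN2-R94Q, nTg, MFN2-R94Q:MFN1 from low to high, and the change against MFN2-R94Q was 0.27 (SE 0.058, adjusted p = 0.011). Irf9, the DNA-binding part of the complex with Stat2, measured 4.99, 4.32, 4.47, 4.70 and 4.63 RPKM in MFN2-R94Q:MFN1, 4.14, 3.49 and 3.77 RPKM in MFN2-R94Q, and 4.09, 3.51 and 4.54 RPKM in nTg. The MFN2-R94Q:MFN1 libraries lay above those of MFN2-R94Q (log2 fold change 0.25, SE 0.074, adjusted p = 0.041), while the nTg libraries overlapped both. That call was lost when any 1 of 8 of the libraries was left out, nTg replicate 1, MFN2-R94Q replicates 2 and 3 and each MFN2-R94Q:MFN1 library, with a highest adjusted p of 0.16. Stat2, its partner, measured 5.73, 6.35, 6.62, 6.76 and 6.03 RPKM in MFN2-R94Q:MFN1, 6.03, 6.05 and 5.96 RPKM in MFN2-R94Q, and 5.81, 5.54 and 6.27 RPKM in nTg. These ranges overlapped, and the change against MFN2-R94Q was 0.06 (SE 0.056, adjusted p = 0.51). Sp100, a nuclear body protein, averaged 1.16 ± 0.13 RPKM in MFN2-R94Q:MFN1, 0.733 ± 0.14 RPKM in MFN2-R94Q and 0.879 ± 0.037 RPKM in nTg, and its change against MFN2-R94Q was 0.43 (SE 0.086, adjusted p = 0.0095).

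The Ifit family encodes antiviral proteins, of which Ifit1 binds foreign RNA and blocks its translation, and its 3 members differed from each other. Ifit3 fell in MFN2-R94Q against nTg and rose in MFN2-R94Q:MFN1 against MFN2-R94Q, Ifit1 rose in the second comparison, and Ifit2 passed in none. They lie together on chromosome 19 (Ifit2 at 34550550 to 34576534, Ifit3 at 34583119 to 34588982 and Ifit1 at 34640889 to 34650009, GRCm38). Ifit3 measured 8.77, 8.32, 9.48, 9.20 and 6.10 RPKM in MFN2-R94Q:MFN1, 4.61, 4.28 and 4.87 RPKM in MFN2-R94Q, and 5.56, 7.27 and 6.39 RPKM in nTg. The MFN2-R94Q libraries lay below all 8 others, and MFN2-R94Q:MFN1 replicate 5 fell within the nTg range. MFN2-R94Q was at 0.715 of the nTg level (log2 fold change -0.44, SE 0.13, adjusted p = 0.038), and MFN2-R94Q:MFN1 was 1.83-fold higher than MFN2-R94Q (log2 fold change 0.79, SE 0.12, adjusted p = 0.0022). The fall against nTg was lost without nTg replicate 2 or 3, MFN2-R94Q replicate 1 or 2, or MFN2-R94Q:MFN1 replicate 2, with a highest adjusted p of 0.14. Of 50-base stretches in Ifit3 transcripts, 51.2% also occur in Ifit3b, so reads of the 2 genes may not be told apart; Ifit3b itself measured 4.60, 4.39, 4.86, 5.10 and 3.88 RPKM in MFN2-R94Q:MFN1, 2.65, 1.92 and 2.87 RPKM in MFN2-R94Q, and 3.20, 3.87 and 3.69 RPKM in nTg, with the same order of groups. Ifit1 measured 1.91, 2.02, 1.86, 2.36 and 1.60 RPKM in MFN2-R94Q:MFN1, 1.60, 1.28 and 1.28 RPKM in MFN2-R94Q, and 1.45, 1.496 and 1.80 RPKM in nTg. MFN2-R94Q:MFN1 replicate 5 did not exceed the highest MFN2-R94Q library, and the change was 0.37 (SE 0.098, adjusted p = 0.027), a call lost without MFN2-R94Q replicate 2 or 3 or MFN2-R94Q:MFN1 replicate 2, with a highest adjusted p of 0.0968. Ifit2 measured 3.49, 3.72, 4.08, 3.49 and 3.30 RPKM in MFN2-R94Q:MFN1, 3.34, 3.70 and 3.58 RPKM in MFN2-R94Q, and 3.20, 3.17 and 3.24 RPKM in nTg. Here the MFN2-R94Q libraries lay within the MFN2-R94Q:MFN1 range and both lay above nTg, without a call.

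The Ifitm family and tetherin act at membranes, Ifitm proteins against the entry of viruses and tetherin (Bst2) against their release. Ifitm3 passed in each comparison. It rose 1.64-fold in MFN2-R94Q:MFN1 against MFN2-R94Q and 1.32-fold against nTg, and fell to 0.807 of the nTg level in MFN2-R94Q. Ifitm3 (chromosome 7, 141009590 to 141010744, GRCm38) measured 19.2, 22.4, 19.8, 20.1 and 20.4 RPKM in MFN2-R94Q:MFN1, 13.4, 11.4 and 12.5 RPKM in MFN2-R94Q, and 14.8, 15.9 and 15.5 RPKM in nTg. The 3 groups did not overlap, and the spread within each was small beside the distance between them. The fitted changes were -0.30 (SE 0.061, adjusted p = 0.0077) for MFN2-R94Q against nTg, 0.69 (SE 0.055, adjusted p = 5.0e-05) between the transgenic groups and 0.39 (SE 0.055, adjusted p = 0.0016) for MFN2-R94Q:MFN1 against nTg. All 3 calls held in each of the 19 refits with another pseudocount, filter, scaling, design or weighting or without 1 library, with a highest adjusted p of 0.0371. Bst2 (chromosome 8, 71534255 to 71537472) measured 5.15, 5.55, 5.08, 4.53 and 4.25 RPKM in MFN2-R94Q:MFN1, 2.30, 2.77 and 3.18 RPKM in MFN2-R94Q, and 3.55, 3.36 and 3.01 RPKM in nTg. Every MFN2-R94Q:MFN1 library was above all others, while MFN2-R94Q and nTg overlapped. Bst2 rose 1.78-fold against MFN2-R94Q (log2 fold change 0.74, SE 0.094, adjusted p = 9.6e-04) and 1.49-fold against nTg (log2 fold change 0.50, SE 0.094, adjusted p = 0.011); the call against nTg was lost without nTg replicate 3, at an adjusted p of 0.0717. Ifitm1 averaged 2.30 ± 0.37 RPKM in MFN2-R94Q:MFN1, 1.48 ± 0.39 RPKM in MFN2-R94Q and 1.74 ± 0.038 RPKM in nTg and rose against MFN2-R94Q (log2 fold change 0.51, SE 0.12, adjusted p = 0.018), a call lost without MFN2-R94Q replicate 2, at an adjusted p of 0.0768. Ifitm2 measured 7.10, 6.07, 7.58, 7.32 and 7.36 RPKM in MFN2-R94Q:MFN1, 6.55, 5.67 and 6.21 RPKM in MFN2-R94Q, and 7.08, 7.32 and 6.44 RPKM in nTg. Its groups overlapped and no comparison passed; 48.5% of its 50-base stretches occur in other genes, most of them in the overlapping gene Gm45717, so its values are uncertain.

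The Oas family makes an RNA-like messenger that activates the nuclease RNase L, and Eif2ak2 encodes PKR, a kinase that stops translation when it binds double-stranded RNA. Oas1a and Oasl2 rose in MFN2-R94Q:MFN1 against MFN2-R94Q, whereas Eif2ak2 was higher in both transgenic groups than in nTg. Oas1a measured 0.535, 0.736, 0.659, 0.396 and 0.586 RPKM in MFN2-R94Q:MFN1, 0.320, 0.215 and 0.166 RPKM in MFN2-R94Q, and 0.352, 0.525 and 0.460 RPKM in nTg. The MFN2-R94Q libraries were below all others, while MFN2-R94Q:MFN1 replicate 4 lay within the nTg range. The change was 0.56 (SE 0.11, adjusted p = 0.009) against MFN2-R94Q, and MFN2-R94Q against nTg just missed the threshold at -0.37 (SE 0.12, adjusted p = 0.058). Of its 50-base stretches 57.6% also occur in Oas1g. Oasl2, a related protein, measured 2.34, 2.50, 2.90, 2.61 and 1.88 RPKM in MFN2-R94Q:MFN1, 1.498, 1.300 and 1.77 RPKM in MFN2-R94Q, and 1.47, 1.89 and 1.90 RPKM in nTg. Its MFN2-R94Q:MFN1 libraries lay above those of MFN2-R94Q, and the lowest of them, replicate 5, lay within the nTg range. The change against MFN2-R94Q was 1.61-fold (log2 fold change 0.54, SE 0.11, adjusted p = 0.011). Eif2ak2 measured 3.44, 3.62, 3.92, 4.01 and 3.62 RPKM in MFN2-R94Q:MFN1, 4.22, 3.63 and 3.50 RPKM in MFN2-R94Q, and 2.90, 2.93 and 3.12 RPKM in nTg. The 2 transgenic groups overlapped each other and every library of both lay above nTg. Eif2ak2 rose 1.27-fold in MFN2-R94Q against nTg (log2 fold change 0.30, SE 0.072, adjusted p = 0.016) and 1.25-fold in MFN2-R94Q:MFN1 against nTg (log2 fold change 0.28, SE 0.065, adjusted p = 0.042), and did not pass between the transgenic groups (log2 fold change -0.02, SE 0.065, adjusted p = 0.88). Without nTg replicate 2 the first of these calls was lost (highest adjusted p of 0.0606 over all refits), and the second was lost without any 1 nTg library or without MFN2-R94Q:MFN1 replicate 2, 3, 4 or 5 (highest adjusted p of 0.165). Oas2 lay below the filter, at 0.167 to 0.348 RPKM in MFN2-R94Q:MFN1, 0.0926 to 0.148 RPKM in MFN2-R94Q and 0.149 to 0.182 RPKM in nTg.

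**Figure D2:**
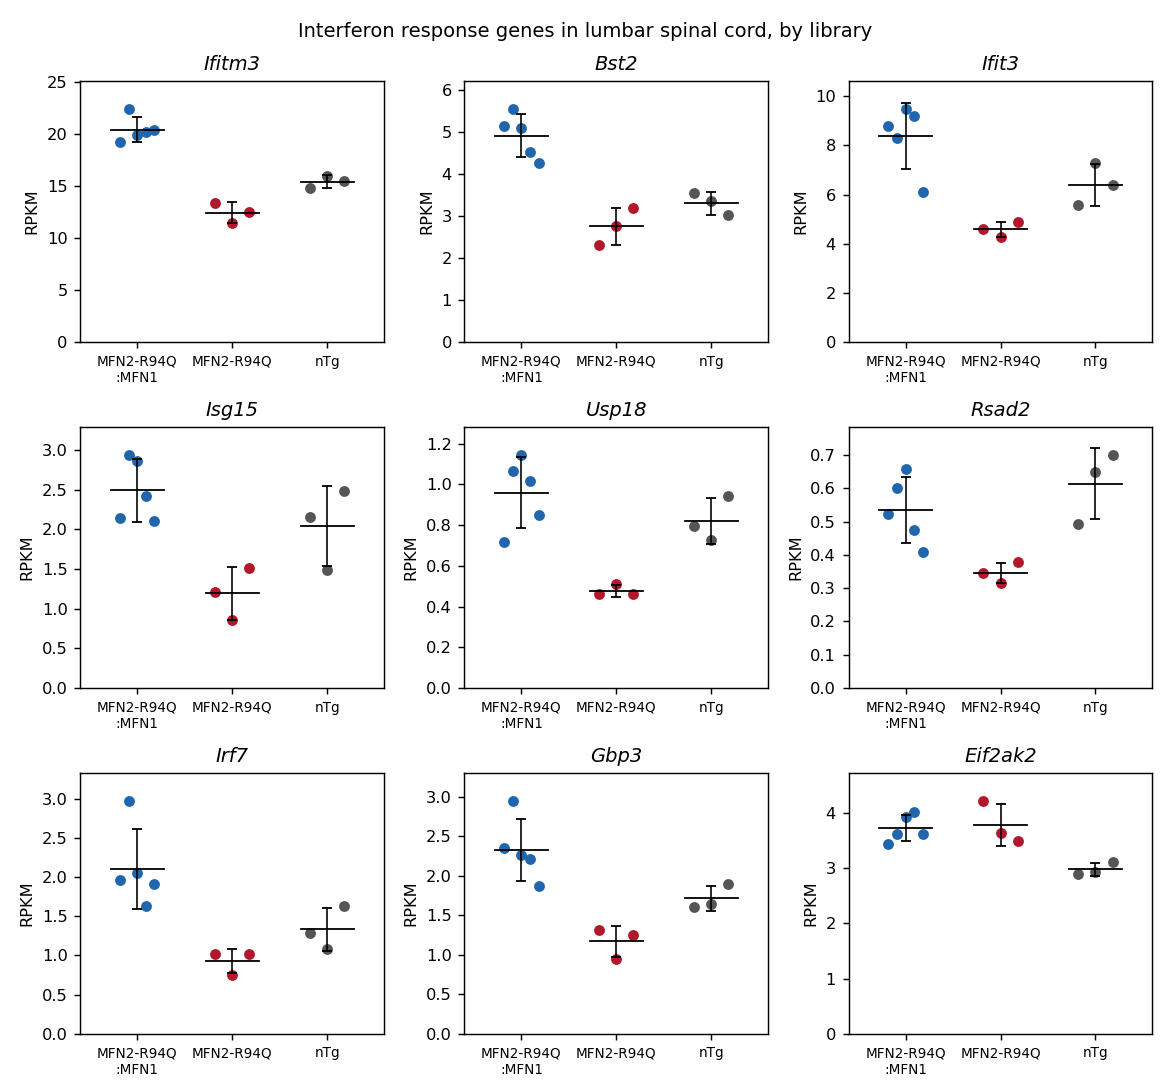
RPKM of 9 members in each library (points), with the group mean (line) and SD (bars), for MFN2-R94Q:MFN1 (n = 5), MFN2-R94Q (n = 3) and nTg (n = 3). Ifitm3 separates the 3 groups without overlap, Rsad2 has its highest mean in nTg, and Eif2ak2 is lower in nTg than in both transgenic groups.

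Rsad2, Cmpk2 and the Mx transcripts did not share 1 pattern. Rsad2 fell in MFN2-R94Q against nTg, Mx2 rose in MFN2-R94Q:MFN1 against MFN2-R94Q, and Cmpk2 passed in none. Rsad2, which encodes viperin, an enzyme that makes a chain-terminating nucleotide, measured 0.524, 0.601, 0.659, 0.476 and 0.408 RPKM in MFN2-R94Q:MFN1, 0.345, 0.315 and 0.378 RPKM in MFN2-R94Q, and 0.494, 0.649 and 0.701 RPKM in nTg. The MFN2-R94Q libraries lay below all others, and the nTg libraries overlapped those of MFN2-R94Q:MFN1 with the highest mean. MFN2-R94Q was at 0.563 of the nTg level (log2 fold change -0.39, SE 0.1, adjusted p = 0.023), a call that leaving out nTg replicate 2, nTg replicate 3 or MFN2-R94Q replicate 2 ended (highest adjusted p of 0.0791 over all refits). Against MFN2-R94Q the MFN2-R94Q:MFN1 value did not pass (log2 fold change 0.28, SE 0.094, adjusted p = 0.063). Cmpk2, a mitochondrial nucleotide kinase, lies next to Rsad2 on chromosome 12 (Rsad2 at 26442743 to 26456452, Cmpk2 at 26469117 to 26479837, GRCm38) and measured 9.18, 10.4, 9.54, 9.20 and 9.40 RPKM in MFN2-R94Q:MFN1, 10.3, 8.90 and 9.93 RPKM in MFN2-R94Q, and 10.95, 10.6 and 10.1 RPKM in nTg. Its level was far above that of its neighbour, its groups overlapped, and its mean was also highest in nTg (log2 fold change -0.14, SE 0.053, adjusted p = 0.21 for MFN2-R94Q:MFN1 against nTg). Mx1 and Mx2 belong to a family of dynamin-like antiviral GTPases, but RefSeq lists both as transcribed pseudogenes in this assembly. Mx2 measured 0.597, 0.833, 1.02, 0.796 and 0.774 RPKM in MFN2-R94Q:MFN1, 0.582, 0.488 and 0.529 RPKM in MFN2-R94Q, and 0.683, 0.602 and 0.818 RPKM in nTg. All MFN2-R94Q libraries lay below the others, and the change of MFN2-R94Q:MFN1 against MFN2-R94Q, 0.33 (SE 0.099, adjusted p = 0.045), was near the threshold and was lost in 13 of 18 refits, with a highest adjusted p of 0.145. Those included leaving out nTg replicate 1, any MFN2-R94Q library or any MFN2-R94Q:MFN1 library other than replicate 1. Mx1 lay below the filter at 0.0863 to 0.188 RPKM in MFN2-R94Q:MFN1, 0.0559 to 0.0960 RPKM in MFN2-R94Q and 0.0880 to 0.129 RPKM in nTg.

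In the ISG15 system, Isg15 and Usp18 fell in MFN2-R94Q against nTg and rose in MFN2-R94Q:MFN1 against MFN2-R94Q. Isg15 is a ubiquitin-like protein that is attached to other proteins after interferon, Usp18 removes it and also restrains the type I receptor, and Herc6 is the ligase that attaches it in mice. Isg15 (chromosome 4, 156199424 to 156200818, GRCm38) measured 2.14, 2.94, 2.87, 2.42 and 2.10 RPKM in MFN2-R94Q:MFN1, 1.21, 0.852 and 1.51 RPKM in MFN2-R94Q, and 2.15, 1.49 and 2.48 RPKM in nTg. MFN2-R94Q:MFN1 lay above MFN2-R94Q in every library, while MFN2-R94Q replicate 3 was just above nTg replicate 2. In MFN2-R94Q it was at 0.584 of the nTg level (log2 fold change -0.59, SE 0.17, adjusted p = 0.03), and was 2.09-fold higher in MFN2-R94Q:MFN1 than in MFN2-R94Q (log2 fold change 0.83, SE 0.15, adjusted p = 0.0055). The fall was lost when nTg replicate 1, nTg replicate 3 or MFN2-R94Q replicate 2 was left out, with a highest adjusted p of 0.11. Usp18 measured 0.717, 1.07, 1.146, 1.02 and 0.849 RPKM in MFN2-R94Q:MFN1, 0.460, 0.512 and 0.463 RPKM in MFN2-R94Q, and 0.794, 0.726 and 0.945 RPKM in nTg. The MFN2-R94Q libraries were close together and below all 8 others, and the other groups overlapped. Usp18 fell to 0.582 of the nTg level (log2 fold change -0.43, SE 0.11, adjusted p = 0.019), a call lost only without nTg replicate 3 among the 19 refits, at an adjusted p of 0.0696, and rose 2.00-fold in MFN2-R94Q:MFN1 against MFN2-R94Q (log2 fold change 0.57, SE 0.098, adjusted p = 0.0045). Herc6 measured 1.48, 1.39, 1.49, 1.51 and 1.29 RPKM in MFN2-R94Q:MFN1, 1.23, 1.10 and 1.21 RPKM in MFN2-R94Q, and 1.34, 1.148 and 1.10 RPKM in nTg. Its MFN2-R94Q:MFN1 libraries lay above those of MFN2-R94Q without a call (log2 fold change 0.20, SE 0.068, adjusted p = 0.065), and nTg overlapped both.

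The interferon-inducible GTPases, which attack the membranes around intracellular microbes, were all higher on average in MFN2-R94Q:MFN1 than in MFN2-R94Q, and Gbp2, Gbp3 and Gbp7 of the 5 passed. These 3 are guanylate-binding proteins next to each other on chromosome 3 (Gbp7 at 142530336 to 142550151, Gbp3 at 142560016 to 142573213 and Gbp2 at 142620663 to 142638008, GRCm38). Gbp2 measured 2.59, 2.62, 2.49, 3.42 and 1.98 RPKM in MFN2-R94Q:MFN1, 1.29, 1.09 and 1.498 RPKM in MFN2-R94Q, and 1.500, 1.71 and 1.68 RPKM in nTg. The 3 groups did not overlap, with MFN2-R94Q lowest and nearly touching nTg, and MFN2-R94Q:MFN1 replicate 4 was the highest. Gbp2 was 2.03-fold higher in MFN2-R94Q:MFN1 than in MFN2-R94Q (log2 fold change 0.79, SE 0.12, adjusted p = 0.0022) and 1.61-fold higher than in nTg (log2 fold change 0.54, SE 0.12, adjusted p = 0.031), where the call was lost without any 1 nTg library or without MFN2-R94Q:MFN1 replicate 1, 2 or 3 (highest adjusted p of 0.148). Gbp3 measured 2.35, 2.95, 2.26, 2.21 and 1.87 RPKM in MFN2-R94Q:MFN1, 1.31, 0.947 and 1.25 RPKM in MFN2-R94Q, and 1.60, 1.64 and 1.90 RPKM in nTg. The MFN2-R94Q libraries again lay below all others. It fell to 0.682 of the nTg level in MFN2-R94Q (log2 fold change -0.41, SE 0.12, adjusted p = 0.035), a call lost without any 1 nTg library or without MFN2-R94Q replicate 2 (highest adjusted p of 0.115), and was 1.99-fold higher in MFN2-R94Q:MFN1 than in MFN2-R94Q (log2 fold change 0.76, SE 0.11, adjusted p = 0.0018). Gbp7 averaged 1.35 ± 0.14 RPKM in MFN2-R94Q:MFN1, 0.990 ± 0.12 RPKM in MFN2-R94Q and 1.149 ± 0.083 RPKM in nTg, a change of 0.31 (SE 0.078, adjusted p = 0.024) against MFN2-R94Q that was lost without MFN2-R94Q replicate 2 or MFN2-R94Q:MFN1 replicate 2 (highest adjusted p of 0.103). Irgm1, a regulator of the immunity-related GTPases on chromosome 11, measured 4.93, 5.41, 5.13, 5.70 and 4.99 RPKM in MFN2-R94Q:MFN1, 4.98, 4.69 and 4.36 RPKM in MFN2-R94Q, and 4.51, 4.31 and 4.30 RPKM in nTg. All its MFN2-R94Q:MFN1 libraries lay above nTg, with a change of 0.23 (SE 0.056, adjusted p = 0.047) that was lost in 11 of 19 refits, 8 of them with a single library left out (each nTg library and each MFN2-R94Q:MFN1 library; highest adjusted p of 0.175). Igtp, another of this family, measured 3.17, 3.43, 2.80, 4.35 and 2.19 RPKM in MFN2-R94Q:MFN1, 2.49, 1.57 and 2.14 RPKM in MFN2-R94Q, and 2.22, 2.42 and 3.08 RPKM in nTg. Its groups overlapped, and 11.8% of its 50-base stretches occur in the overlapping gene Irgm2.

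The remaining members held the highest expressed gene of the list, Ifi27, and genes near 1 RPKM. Ifi27, a small hydrophobic protein of intracellular membranes, measured 28.6, 28.4, 29.3, 21.5 and 26.8 RPKM in MFN2-R94Q:MFN1, 22.8, 19.4 and 21.6 RPKM in MFN2-R94Q, and 24.3, 24.1 and 26.3 RPKM in nTg. MFN2-R94Q:MFN1 replicate 4 lay below the highest MFN2-R94Q library, and the other 4 lay above all libraries of both other groups. It rose 1.27-fold against MFN2-R94Q (log2 fold change 0.33, SE 0.086, adjusted p = 0.027), a call lost without MFN2-R94Q replicate 2 or MFN2-R94Q:MFN1 replicate 1, 2, 3 or 5 (highest adjusted p of 0.108). Parp14, an ADP-ribosyltransferase, averaged 0.905 ± 0.1 RPKM in MFN2-R94Q:MFN1, 0.624 ± 0.091 RPKM in MFN2-R94Q and 0.666 ± 0.057 RPKM in nTg, with every MFN2-R94Q:MFN1 library above the others and a change of 0.32 (SE 0.081, adjusted p = 0.023) against MFN2-R94Q. It did not hold without MFN2-R94Q replicate 2 (highest adjusted p of 0.103). Xaf1, a promoter of apoptosis, measured 2.32, 2.31, 2.71, 2.40 and 2.26 RPKM in MFN2-R94Q:MFN1, 2.04, 2.29 and 1.98 RPKM in MFN2-R94Q, and 1.86, 2.31 and 2.31 RPKM in nTg. Ifi35, an interferon-induced leucine zipper protein, measured 2.94, 2.82, 2.42, 2.21 and 2.46 RPKM in MFN2-R94Q:MFN1, 2.40, 1.98 and 2.28 RPKM in MFN2-R94Q, and 2.49, 2.36 and 2.46 RPKM in nTg. Both overlapped between all groups. Rtp4, a receptor transport protein, averaged 1.63 ± 0.3 RPKM in MFN2-R94Q:MFN1, 1.21 ± 0.16 RPKM in MFN2-R94Q and 1.29 ± 0.1 RPKM in nTg, and missed the threshold against MFN2-R94Q (log2 fold change 0.31, SE 0.1, adjusted p = 0.068). Ifi44 lay below the filter, at 0.207 to 0.425 RPKM in MFN2-R94Q:MFN1, 0.0574 to 0.224 RPKM in MFN2-R94Q and 0.134 to 0.278 RPKM in nTg.

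**Figure D3:**
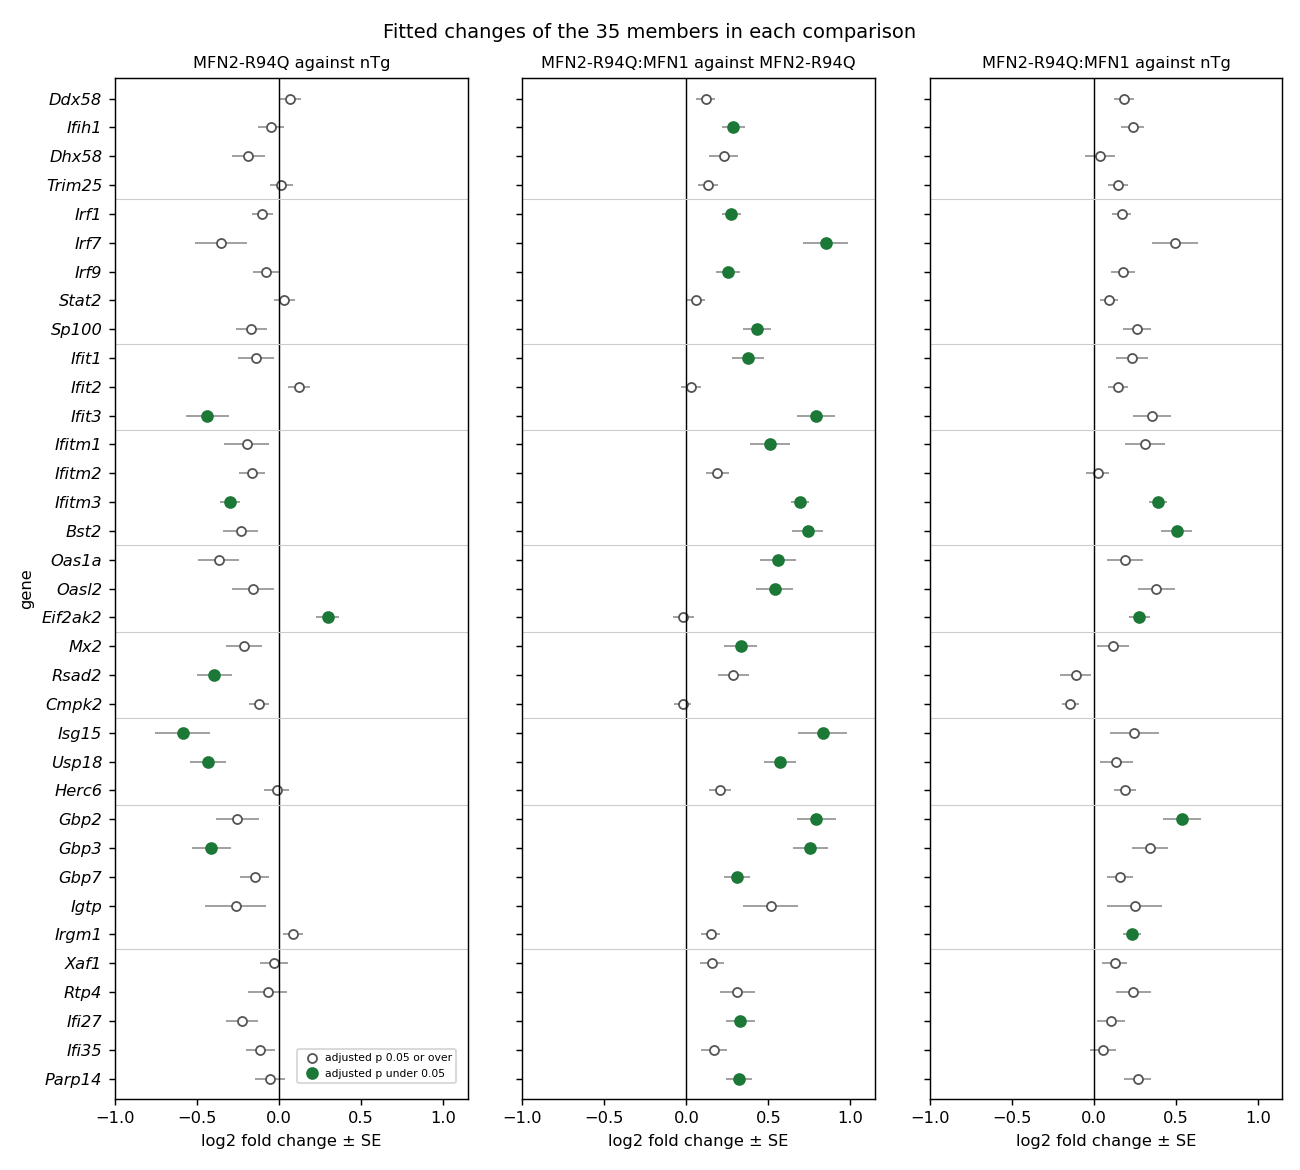
Fitted log2 fold change with its SE (horizontal axis) of the 35 members (rows) in each of the 3 comparisons, filled green where the adjusted p was under 0.05. In MFN2-R94Q against nTg 6 filled points lie left of 0 and 1 right of it; in MFN2-R94Q:MFN1 against MFN2-R94Q 20 lie right of 0 and none left; in MFN2-R94Q:MFN1 against nTg 5 lie right of 0.

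Other genes of the pathway were taken from a list of 125, of which 114 were in the table and 88 passed the filter. In MFN2-R94Q against nTg 6 rose (6.82%) and 5 fell (5.68%), shares at or below the 7.5% and 10.4% of all genes. In MFN2-R94Q:MFN1 against MFN2-R94Q 32 rose (36.4%, against 9.55% of all genes) and 1 fell (1.14%, against 3.33%), and in MFN2-R94Q:MFN1 against nTg 11 rose (12.5%, against 2.09% of all genes) and none fell by limma, with 1 at an unadjusted p under 0.05. Their median log2 fold changes were -0.02, 0.14 and 0.12 in the 3 comparisons. Transcripts of the interferons themselves were near the limit of detection. Of 20 ligand genes 9 were in the table and none passed the filter; Ifnz reached at most 0.203 RPKM and the other 8 at most 0.0805. Ifnb1, the beta interferon, was listed at 0 in 9 of the 11 libraries and Ifng, the type II interferon, in 8.

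The receptor chains were expressed in every library. Ifngr2 rose in MFN2-R94Q:MFN1 against MFN2-R94Q and measured 13.8, 14.1, 13.8, 13.3 and 14.0 RPKM in MFN2-R94Q:MFN1, 12.3, 11.8 and 13.0 RPKM in MFN2-R94Q, and 14.4, 13.5 and 13.1 RPKM in nTg. The MFN2-R94Q libraries lay below all others (log2 fold change 0.15, SE 0.041, adjusted p = 0.03). Ifnar1 ranged over 6.04 to 6.45 RPKM in MFN2-R94Q:MFN1, 5.56 to 6.06 RPKM in MFN2-R94Q and 5.31 to 5.74 RPKM in nTg, and Ifngr1 over 8.51 to 9.11 RPKM in MFN2-R94Q:MFN1, 7.23 to 9.51 RPKM in MFN2-R94Q and 7.81 to 8.51 RPKM in nTg, with no call. Of the kinases and signal transducers named here, Jak1 averaged 41.0 ± 0.31 RPKM in MFN2-R94Q:MFN1, 40.2 ± 1.5 RPKM in MFN2-R94Q and 41.6 ± 1.9 RPKM in nTg, without a call, and neither Jak2 nor Stat3 passed in any comparison.

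Among sensors and adaptors outside the member list, some followed another order. Tlr7 and Tlr9, endosomal receptors of microbial nucleic acid, and Aim2, a cytoplasmic DNA sensor, rose in MFN2-R94Q against nTg, by 0.63 (SE 0.14, adjusted p = 0.012), 0.36 (SE 0.084, adjusted p = 0.013) and 0.30 (SE 0.072, adjusted p = 0.015) on the log2 scale. Tlr7 measured 1.06, 0.670, 0.703, 0.899 and 0.860 RPKM in MFN2-R94Q:MFN1, 0.852, 1.42 and 1.01 RPKM in MFN2-R94Q, and 0.665, 0.519 and 0.384 RPKM in nTg. Both transgenic groups lay above nTg. Irf3, the factor that starts interferon transcription after sensing, fell instead, and measured 8.75, 7.95, 7.14, 8.01 and 7.77 RPKM in MFN2-R94Q:MFN1, 6.41, 6.61 and 7.35 RPKM in MFN2-R94Q, and 8.80, 9.24 and 9.15 RPKM in nTg. It was lowest in MFN2-R94Q and highest in nTg, with -0.39 (SE 0.066, adjusted p = 0.0034) for MFN2-R94Q against nTg and 0.21 (SE 0.059, adjusted p = 0.037) for MFN2-R94Q:MFN1 against MFN2-R94Q. Traf3, Tbk1 and Adar, the most expressed of this class, passed in no comparison. Among negative regulators, the phosphatase gene Ptpn11 measured 51.8, 50.02, 49.2, 48.8 and 51.3 RPKM in MFN2-R94Q:MFN1, 53.2, 75.2 and 56.1 RPKM in MFN2-R94Q, and 50.8, 48.1 and 48.0 RPKM in nTg, with MFN2-R94Q replicate 2 far above the rest. Ptpn11 rose in MFN2-R94Q against nTg (log2 fold change 0.31, SE 0.092, adjusted p = 0.036) and was the single pathway gene that fell in MFN2-R94Q:MFN1 against MFN2-R94Q (log2 fold change -0.27, SE 0.083, adjusted p = 0.047). Pias1, an inhibitor of interferon signalling, rose in MFN2-R94Q against nTg (log2 fold change 0.24, SE 0.057, adjusted p = 0.014), and Trex1, a nuclease that clears cytoplasmic DNA, fell (log2 fold change -0.16, SE 0.05, adjusted p = 0.043). Rnaseh2c, whose product removes RNA from DNA hybrids, averaged 13.0 ± 1.5 RPKM in MFN2-R94Q:MFN1, 12.0 ± 1.5 RPKM in MFN2-R94Q and 14.1 ± 1.2 RPKM in nTg, without a call.

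Uba7, the enzyme that activates Isg15 for attachment, rose in MFN2-R94Q:MFN1 against MFN2-R94Q (log2 fold change 0.47, SE 0.1, adjusted p = 0.014), while Ube2l6, the enzyme that carries it, did not pass (log2 fold change 0.16, SE 0.066, adjusted p = 0.12). Of 48 further induced genes past the filter 22 rose in that comparison (45.8%, against 9.55% of all genes) and none fell by limma (against 3.33%), with 2 at an unadjusted p under 0.05. B2m, the light chain of class I histocompatibility molecules, measured 135, 137, 137, 143 and 114 RPKM in MFN2-R94Q:MFN1, 93.1, 82.1 and 103 RPKM in MFN2-R94Q, and 89.5, 90.9 and 97.4 RPKM in nTg. MFN2-R94Q and nTg overlapped and MFN2-R94Q:MFN1 lay above both, with 0.52 (SE 0.076, adjusted p = 0.0019) against MFN2-R94Q and 0.52 (SE 0.076, adjusted p = 0.0021) against nTg. Ly6e, a membrane protein that restricts some viruses, measured 34.3, 33.8, 34.3, 34.0 and 33.8 RPKM in MFN2-R94Q:MFN1, 29.5, 27.8 and 30.4 RPKM in MFN2-R94Q, and 31.6, 34.4 and 33.6 RPKM in nTg. It was lower in MFN2-R94Q than in nTg (log2 fold change -0.18, SE 0.04, adjusted p = 0.0099) and higher in MFN2-R94Q:MFN1 than in MFN2-R94Q (log2 fold change 0.22, SE 0.035, adjusted p = 0.0034). Nlrc5, a transactivator of class I genes, averaged 0.536 ± 0.05 RPKM in MFN2-R94Q:MFN1, 0.502 ± 0.087 RPKM in MFN2-R94Q and 0.306 ± 0.044 RPKM in nTg and was higher in MFN2-R94Q than in nTg (log2 fold change 0.31, SE 0.089, adjusted p = 0.03). Ly6a, also an endothelial gene in mice, averaged 18.3 ± 3.2 RPKM in MFN2-R94Q:MFN1, 16.4 ± 2.3 RPKM in MFN2-R94Q and 19.8 ± 3.2 RPKM in nTg, without a call.

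Some markers of several cell types were called between the groups. The counts stand beside these shares of all genes. In MFN2-R94Q against nTg 7.5% rose and 10.4% fell. In MFN2-R94Q:MFN1 against MFN2-R94Q 9.55% rose and 3.33% fell, and against nTg 2.09% rose. The 12 microglia markers summed to 217 to 243 RPKM in MFN2-R94Q:MFN1, 146 to 172 RPKM in MFN2-R94Q and 158 to 170 RPKM in nTg. Of the 12, 11 rose in MFN2-R94Q:MFN1 against MFN2-R94Q, 5 rose in MFN2-R94Q:MFN1 against nTg and 2 (P2ry12 and Sall1) fell in MFN2-R94Q against nTg. C1qa, a complement gene expressed by microglia, averaged 55.8 ± 5.9 RPKM in MFN2-R94Q:MFN1, 36.2 ± 1.8 RPKM in MFN2-R94Q and 34.2 ± 1.6 RPKM in nTg. The 10 endothelial markers summed to 109 to 125 RPKM in MFN2-R94Q:MFN1, 97.7 to 109 RPKM in MFN2-R94Q and 111 to 120 RPKM in nTg. Of these 4 rose in MFN2-R94Q:MFN1 against MFN2-R94Q, 1 rose in MFN2-R94Q:MFN1 against nTg, and 5 fell and 2 rose in MFN2-R94Q against nTg. The 8 oligodendrocyte markers summed to 4048 to 4384 RPKM in MFN2-R94Q:MFN1, 3432 to 3773 RPKM in MFN2-R94Q and 3915 to 4243 RPKM in nTg, with 6 that rose in MFN2-R94Q:MFN1 against MFN2-R94Q and 4 that fell in MFN2-R94Q against nTg. The 8 astrocyte markers summed to 966 to 1019 RPKM in MFN2-R94Q:MFN1, 858 to 889 RPKM in MFN2-R94Q and 763 to 790 RPKM in nTg, with no overlap. The largest term was Gfap, the intermediate filament of astrocytes, at 443 to 497, 364 to 422 and 256 to 287 RPKM in these groups. The other markers did not share its order. Mean Aqp4, Slc1a2, Gja1 and Slc7a10 were lower in MFN2-R94Q than in nTg, and mean Aldh1l1, Slc1a3 and Fgfr3 were higher. Of the 8 markers, 4 rose in MFN2-R94Q:MFN1 against MFN2-R94Q and 1 (Gfap) rose in MFN2-R94Q:MFN1 against nTg. In MFN2-R94Q against nTg 2 rose and 2 fell. Gfap averaged 465 ± 22 RPKM in MFN2-R94Q:MFN1, 392 ± 29 RPKM in MFN2-R94Q and 274 ± 16 RPKM in nTg, and its log2 fold change was 0.52 (SE 0.059, adjusted p = 0.001) in MFN2-R94Q against nTg. The 6 motor neuron markers summed to 85.7 to 92.5 RPKM in MFN2-R94Q:MFN1, 77.1 to 83.9 RPKM in MFN2-R94Q and 90.2 to 93.1 RPKM in nTg, with 4 that fell in MFN2-R94Q against nTg and 1 that rose in MFN2-R94Q:MFN1 against MFN2-R94Q. Of the 8 neuron markers, which share Chat with the motor neuron list, 3 fell and 1 rose in MFN2-R94Q against nTg, and 1 fell in MFN2-R94Q:MFN1 against MFN2-R94Q. The part of these markers in the changes of the interferon response genes was not tested. In bulk tissue, fewer cells of a type and less RNA per cell cannot be told apart.

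Markers of infiltrating blood cells were low, except S100a4. The 9 measured T and NK cell markers summed to 0.491 to 0.569 RPKM in MFN2-R94Q:MFN1, 0.182 to 0.205 RPKM in MFN2-R94Q and 0.253 to 0.308 RPKM in nTg, and the highest single value was 0.236 RPKM. The 4 B cell markers summed to at most 0.471 RPKM and the 8 neutrophil markers to at most 2.98 RPKM in any library. The 6 monocyte markers summed to 3.40 to 4.15 RPKM in MFN2-R94Q:MFN1, 2.22 to 3.06 in MFN2-R94Q and 1.14 to 1.76 in nTg. Most of each sum was S100a4, at 3.09 to 3.78, 2.16 to 2.92 and 0.927 to 1.52 RPKM in these groups. S100a4 was the 1 monocyte marker past the filter, and it rose in all 3 comparisons. Of the others, Ly6c2 was at most 0.311 RPKM, and Ccr2 and Chil3 were at most 0.0730 and 0.0371 RPKM. All markers of neurons, motor neurons, oligodendrocytes and astrocytes and the lumbar Hox genes were detected in every library.

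**Figure D4:**
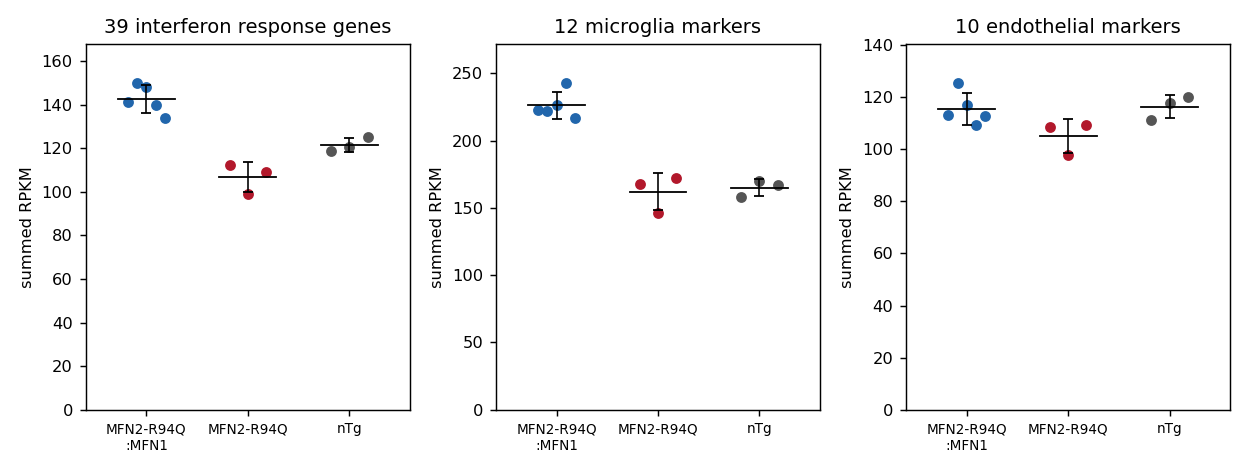
Summed RPKM of the 39 interferon response genes, of 12 microglia markers and of 10 endothelial markers in each library (points), with the group mean (line) and SD (bars), for MFN2-R94Q:MFN1 (n = 5), MFN2-R94Q (n = 3) and nTg (n = 3). The sum of the interferon response genes, with Ifi27 and Ifitm3 as its largest terms, separates all 3 groups (134 to 150, 99.0 to 112 and 119 to 125 RPKM). The sum of the microglia markers is high in MFN2-R94Q:MFN1 and overlaps between MFN2-R94Q and nTg.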

How the data were processed

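Lumbar spinal cord RNA was made into stranded mRNA libraries, per the labels' protocols. Expression values are RPKM as deposited by the authors, with a column for each library. The submitters' processing notes name TopHat, Partek 7.17.0918 and the mouse build mm10. They leave out the annotation, whether strand was used and how reads with several matches were counted, so values of overlapping or near-identical genes are uncertain. Groups follow the genotype labels, and replicate numbers only name libraries.

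RPKM of at least 0.5 in 3 or more libraries was required of a gene (14347 of 20888). The values log2(RPKM + 0.5) of all 11 libraries were modelled together by genotype with limma 3.58.1 (R 4.3.3; lmFit, contrasts.fit, eBayes with trend). Tests were two-sided, with Benjamini-Hochberg adjustment over all 14347 genes and a threshold of 0.05, and the spread was estimated over all 3 groups. Errors after RPKM values are SDs. Depth was recovered from RefSeq genes under 160 bases, where 94.2% to 96.7% of values of at most 5 reads lay within 0.02 of a whole number. The fit was tested on simulated data with the same spread in every library, so that test does not cover a library that stands apart. Values in every library are given for members called in MFN2-R94Q against nTg, for the 3 with the highest mean in each role and for the 5 with the smallest adjusted p in each comparison. Pathway genes are named if they have the 3 highest means of their class or were called in MFN2-R94Q against nTg; C1qa, Gfap and the blood cell markers were picked with their values in view. Some results are not reported here. The members, lists and tests were chosen with earlier results of these data known. Promoters came from RefSeq on GRCm38.p6, with 25 bases printed on each side of the matches where the 250 bases allow, and shared 50-base stretches and exon overlaps from GENCODE. Alternatives covered the pseudocount, filter, scaling, design, weights, threshold and each library left out.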

Additional observations from a re-analysis of the deposited data

How the results depend on the processing

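No value reversed its direction while called, in any of the 3 comparisons. In MFN2-R94Q against nTg, 6 members fell and 1 rose as reported; the fall was 3 with no filter on low values, 3 with only the 2 groups compared in the fit and 1 at an adjusted p of 0.01, and the rise was 0 with only the 2 groups and 0 at 0.01. In MFN2-R94Q:MFN1 against MFN2-R94Q the 20 rises were 10 at an adjusted p of 0.01, and the median log2 fold change of 0.31 was 0.41 with a pseudocount of 0.1 and 0.23 with a pseudocount of 1. In MFN2-R94Q:MFN1 against nTg the 5 rises were 2 with no filter, 2 under quantile normalization, 3 under median ratio scaling and 1 at 0.01. The cause was not tested for these, other than that fewer genes pass a stricter threshold. Leaving out each library in turn gave 1 to 8 falls, 0 to 1 rises and a median of -0.19 to -0.0803 in the first comparison, 12 to 21 rises and a median of 0.26 to 0.36 in the second, and 1 to 6 rises and a median of 0.18 to 0.22 in the third. The median log2 fold change of all genes lay between -0.01 and 0.02 in every refit. Without the filter, Zbp1 passed in MFN2-R94Q:MFN1 against MFN2-R94Q (log2 fold change 0.31, limma adjusted p = 0.0343), and Oas2, Mx1 and Ifi44 did not. All genes called in MFN2-R94Q against nTg numbered 2561, and 844 with only the 2 groups compared; in MFN2-R94Q:MFN1 against MFN2-R94Q they numbered 1848, and 1198 with no filter; in MFN2-R94Q:MFN1 against nTg they numbered 332, and 565 with only the 2 groups and 592 with library weights. With 1 library left out they numbered 1213 to 2857, 882 to 2217 and 189 to 589. Over all members, settings and comparisons, 33, 52 and 34 called values lost their call in the 3 comparisons in the order above. No paired analysis was possible because the labels give no replicate numbers that pair libraries across groups. Members with the lowest values rest on few reads at these depths, as Zbp1 does at 0.0151 to 0.0705 RPKM in MFN2-R94Q.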
